A study of Mus musculus with 24 samples.

Results

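*Pvalb*, *Sst*, *Vip*, *Npy*, *Calb1*, *Calb2*, *Cck* and *Reln* are the genes by which the classes of inhibitory interneurons of the cortex are usually told apart, and their H3K4me3 was examined in mice that carry a FLAG-tagged histone H2B. The regions of these 8 genes were chosen as those of the 17993 counted H3K4me3 regions that overlap an annotated transcription start site (TSS) of the gene (GENCODE M1, mm9). Only 4 of the 8 genes had such a region, *Pvalb*, *Calb1*, *Cck* and *Reln*, with 1 region each, out of 13404 regions at a TSS of any gene. *Sst*, *Vip*, *Npy* and *Calb2* had none, so no level can be given for them.

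The libraries came from cerebral cortex of C57BL/6 mice, per the labels, whereas the study's text speaks of brain at some steps, and each lysate was made from 2 animals. In the Rosa H2B-FLAG line (genotype Rosa CAG-H2B-FLAG), the CAG promoter at the Rosa26 locus drives H2B-FLAG in nearly every cell. This follows germline recombination by Vasa-Cre. The study describes the brains used for chromatin as adult, and the age of this line in weeks was not given. In the Camk2a H2B-FLAG line (genotype Rosa26 CAG-floxed-pA-H2B-FLAG with CaMKCreERT2), the same cassette is opened by a Cre recombinase that is driven by a *Camk2a* promoter and needs tamoxifen. Heterozygous males of this line received tamoxifen from an age of 8 weeks at 1 mg per day for 5 days and were dissected about a month later, so H2B-FLAG marks *Camk2a*-positive pyramidal neurons and any other cell in which this Cre was active. Tamoxifen is stated for the Camk2a line only, and all animals of both lines carry the Rosa26 H2B-FLAG cassette. Single ChIP-Seq used the anti-H3K4me3 antibody alone on chromatin of all cells, and tChIP-Seq (tandem ChIP-Seq) purified FLAG-tagged chromatin first and then H3K4me3. The 2 lines and 2 assays gave 4 groups of 3 libraries.

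H3K4me3, tri-methylation of lysine 4 of histone H3, marks the start sites of genes that are transcribed or poised. Cortical interneurons release GABA and are divided into classes by the peptides and calcium-binding proteins they make. *Sst*, *Vip*, *Npy* and *Cck* encode the precursors of somatostatin, vasoactive intestinal peptide, neuropeptide Y and cholecystokinin, which act on G-protein-coupled receptors. *Pvalb*, *Calb1* and *Calb2* encode the EF-hand proteins parvalbumin, calbindin and calretinin, which bind and buffer calcium. *Reln* encodes reelin, a secreted protein that guides layering of the cortex, signals through the receptors encoded by *Vldlr* and *Lrp8*, and is made in the adult cortex by interneurons. The markers are not exclusive to interneurons: *Cck* and *Calb1* are also transcribed in sets of pyramidal neurons.

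The 4 regions differed in what they cover. The *Cck* region (chr9:121400789-121405510, gene on the minus strand, ENSMUSG00000032532.5) was 4722 bp wide, rank 586 of all regions by width, and ran from 703 bp upstream of the first start to 4018 bp into the gene. Of its bases, 377 were coding and 3548 intronic. The *Calb1* region (chr4:15807854-15810408, plus strand, ENSMUSG00000028222.2) was 2555 bp wide and held 2 of 3 annotated starts, with 557 bp upstream of the gene. The *Reln* region (chr5:21849295-21851425, minus strand, ENSMUSG00000042453.7) was 2131 bp wide and held the 4 starts at the 5′ end out of 9, with 902 bp upstream. The *Pvalb* region (chr15:78034381-78035080, minus strand, ENSMUSG00000005716.10) was only 700 bp wide and did not reach the 5′ start of the gene, which lies 1750 bp upstream of it. It held the downstream start, of transcript Pvalb-002, within the gene, where it covered 61 coding bases and 547 intronic bases. No other gene had a start in any of the 4 regions.

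**Figure D1:**
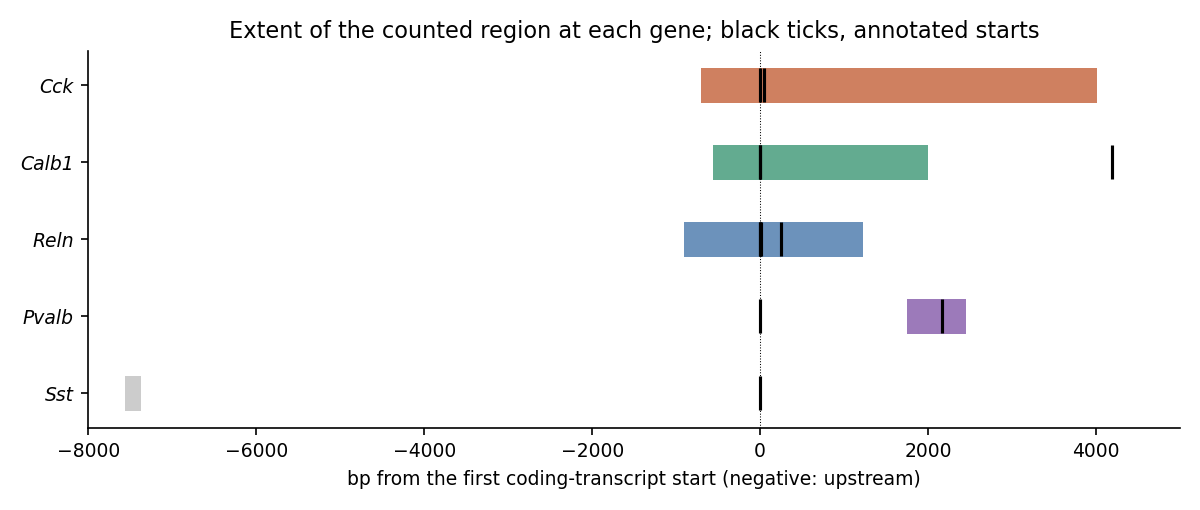
Extent of the H3K4me3 region (bars) of *Cck*, *Calb1*, *Reln* and *Pvalb*, and of the region nearest to *Sst*, in bp from the first start of a coding transcript along the direction of transcription (x axis), with annotated starts as black ticks. The *Cck* bar is 4722 bp long, the *Pvalb* bar starts 1750 bp downstream of the first start, and the region nearest to *Sst* ends 7371 bp upstream of its start.

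Starts of the genes with a region are shown to let their base composition be seen, since CpG-rich promoters commonly carry H3K4me3. Each sequence holds 250 bases before and 50 bases from the start, is read 5′ to 3′ on the strand of the gene from mm9, and has its CpG dinucleotides in capitals. For *Pvalb*, the first window is the 5′ start outside the region (chr15:78036781-78037080) and the second the downstream start inside it (chr15:78034618-78034917). The others are the 5′ starts of *Calb1* (chr4:15808161-15808460), *Cck* (chr9:121404758-121405057) and *Reln* (chr5:21850474-21850773).
Pvalb 5′ start: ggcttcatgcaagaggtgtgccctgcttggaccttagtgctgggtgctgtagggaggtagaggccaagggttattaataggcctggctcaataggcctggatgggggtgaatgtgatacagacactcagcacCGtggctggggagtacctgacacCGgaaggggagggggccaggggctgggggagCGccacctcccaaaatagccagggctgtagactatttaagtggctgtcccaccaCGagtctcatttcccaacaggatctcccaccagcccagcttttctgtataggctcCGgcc
Pvalb downstream start: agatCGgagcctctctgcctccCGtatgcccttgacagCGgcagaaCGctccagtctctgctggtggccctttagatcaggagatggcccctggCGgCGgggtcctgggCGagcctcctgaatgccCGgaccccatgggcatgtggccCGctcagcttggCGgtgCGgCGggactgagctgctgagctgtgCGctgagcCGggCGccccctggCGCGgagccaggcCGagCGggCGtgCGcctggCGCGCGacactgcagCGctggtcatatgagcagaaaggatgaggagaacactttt
Calb1: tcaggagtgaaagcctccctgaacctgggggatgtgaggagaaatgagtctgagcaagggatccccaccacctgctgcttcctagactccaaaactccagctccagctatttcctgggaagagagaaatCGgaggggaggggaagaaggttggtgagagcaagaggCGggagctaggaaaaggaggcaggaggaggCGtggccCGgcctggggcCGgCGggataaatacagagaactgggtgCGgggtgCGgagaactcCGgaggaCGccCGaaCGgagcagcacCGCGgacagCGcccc
Cck: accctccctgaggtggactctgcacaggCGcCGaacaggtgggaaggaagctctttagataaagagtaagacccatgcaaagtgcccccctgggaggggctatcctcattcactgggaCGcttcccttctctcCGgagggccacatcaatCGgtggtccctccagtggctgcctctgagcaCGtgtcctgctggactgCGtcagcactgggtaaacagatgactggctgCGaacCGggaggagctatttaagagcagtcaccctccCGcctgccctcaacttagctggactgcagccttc
Reln: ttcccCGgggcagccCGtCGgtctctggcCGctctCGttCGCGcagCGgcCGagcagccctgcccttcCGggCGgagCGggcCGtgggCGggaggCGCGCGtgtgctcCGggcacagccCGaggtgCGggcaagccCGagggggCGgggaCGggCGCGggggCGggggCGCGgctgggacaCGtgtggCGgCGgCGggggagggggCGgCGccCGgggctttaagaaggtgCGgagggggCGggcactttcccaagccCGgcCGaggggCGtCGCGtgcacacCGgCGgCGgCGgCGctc

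The *Pvalb* starts differed in CpG number. The window at the 5′ start, outside the region, held 5 CpG and the one at the downstream start, inside it, 25. The 300-base windows of 22227 protein-coding genes held a median of 12 CpG. *Reln* held 47 CpG at its 5′ start, more than 98.3% of promoters, and 56 at a start 253 bp downstream, while *Cck* held 10 and *Calb1* 15. Among the genes with no region, *Vip* held 4 CpG, *Sst* 13, *Npy* 24 and *Calb2* 28. The median was 20 CpG for 13284 genes with a region at a start and 3 for 8943 genes without one, so *Npy* and *Calb2* lay above the median of the genes with a region and had none. Of all protein-coding genes, 59.8% (13290 of 22238) had a region at a start.

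**Figure D2:**
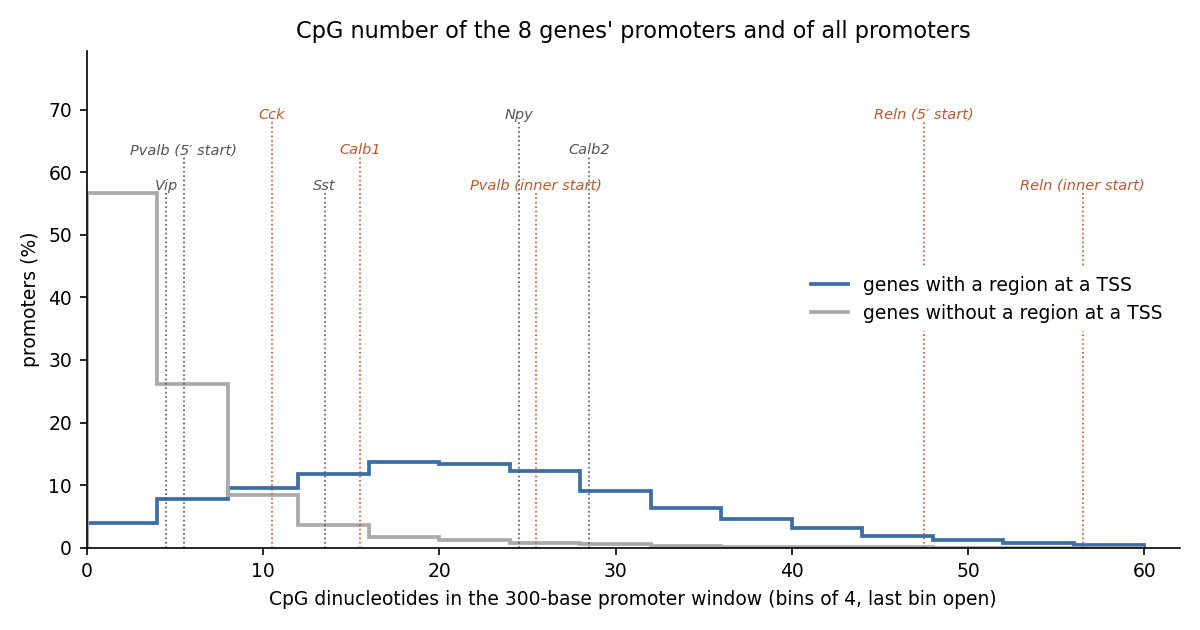
Number of CpG dinucleotides in 300-base promoter windows (x axis) against the percent of promoters (y axis) for genes with (blue) and without (grey) a region at a start, with the windows of the 8 genes as dotted lines (orange, start inside a region; grey, outside). *Cck* with 10 and *Calb1* with 15 CpG carry a region, whereas *Npy* with 24 and *Calb2* with 28 do not.

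The same windows were searched on both strands for 5 motifs. The full cyclic AMP response element, TGACGTCA, lay in the *Sst* window with its first base 48 bases before the start, and 2.35% of promoters hold it. The short form of this element, TGACG, which is also found inside the full one, lay 52 bases before the start of *Cck* and 79 bases before that of *Vip*, and 23.4% of promoters hold it. The GC box, GGGCGG, occurred 6 times before the 5′ start of *Reln* and once each before *Npy* and *Calb2*, where 44.0% of promoters have at least 1. The TATA motif, TATAAA, found in 13.4% of promoters, lay 30 bases before the start of *Vip* and 32 bases before that of *Calb2*; *Vip* held 2 further copies. The E box, CAGCTG, found in 15.1%, was in none of the windows, and no motif of the 5 was found at *Calb1* or at either *Pvalb* start.

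Total counts over the regions were 7104660, 8644574 and 6316125 in Rosa single ChIP-Seq, 1828371, 1607389 and 1457261 in Rosa tChIP-Seq, 4125767, 4233144 and 4063200 in Camk2a single ChIP-Seq, and 3049130, 2778331 and 2709729 in Camk2a tChIP-Seq. Rosa tChIP-Seq was thus the shallowest group. Replicates of a group differed by little more than counting error over all regions, with a chi-square per degree of freedom between 1.03 and 1.09. Because the sources used here do not say which libraries share animals, p-values measure the spread between these libraries, which may be technical. Levels are given as CPM, reads relative to the library total after its adjustment by the trimmed mean of M values (TMM), and a region was called at an edgeR quasi-likelihood adjusted p under 0.01 over all regions.

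As a check of the labels, *Camk2a* and *Slc17a7* (the vesicular glutamate transporter of cortical pyramidal neurons) were higher in Camk2a than in Rosa tChIP-Seq, with log2 fold changes of 2.27 (SE 0.0685, adjusted p = 9.42e-44) and 1.65 (SE 0.0984, adjusted p = 1.5e-25). *Camk2a* was also higher in single ChIP-Seq of the Camk2a line, by 0.52 (adjusted p = 3.74e-27), where *Slc17a7* was at -0.02 (adjusted p = 0.838). The Cre transgene is driven by a *Camk2a* promoter, and its part in the *Camk2a* count was not tested.

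*Cck* was lowest in Rosa tChIP-Seq and highest in Camk2a tChIP-Seq. Its region held 117 ± 3.56 CPM (SD, n = 3) in Rosa single ChIP-Seq, 117 ± 5.57 in Camk2a single ChIP-Seq, 53.7 ± 2.47 in Rosa tChIP-Seq and 170.0 ± 5.76 in Camk2a tChIP-Seq. The libraries read 120, 119 and 113 CPM, then 124, 114 and 115, then 51.1, 56.1 and 53.8, and then 163, 173 and 174 in that order of groups. The single ChIP-Seq groups overlapped, all Rosa tChIP-Seq libraries lay below them and all Camk2a tChIP-Seq libraries above. The Rosa tChIP-Seq values rest on 98, 94 and 82 reads.

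*Calb1*, for calbindin, was also lowest in Rosa tChIP-Seq and highest in Camk2a tChIP-Seq. Its region held 30.2 ± 1.72 CPM in Rosa single ChIP-Seq, 35.4 ± 4.04 in Camk2a single ChIP-Seq, 18.7 ± 1.85 in Rosa tChIP-Seq and 53.9 ± 0.423 in Camk2a tChIP-Seq (SD, n = 3 each). The libraries of Rosa tChIP-Seq read 16.7, 19.1 and 20.3 CPM and those of Camk2a tChIP-Seq 54.1, 53.4 and 54.2. Those of single ChIP-Seq read 28.4, 31.8 and 30.3 in Rosa and 34.5, 32.0 and 39.9 in Camk2a. No pair of neighbouring groups in this order overlapped, but the gap between the single ChIP-Seq groups, from 31.8 to 32.0 CPM, was narrow.

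*Reln* read more after tandem than after single purification in both lines. Its region held 31.5 ± 1.11 CPM in Rosa single ChIP-Seq, 35.4 ± 5.6 in Camk2a single ChIP-Seq, 48.0 ± 7.31 in Rosa tChIP-Seq and 58.1 ± 6.92 in Camk2a tChIP-Seq (SD, n = 3 each). The libraries of tChIP-Seq read 56.4, 42.9 and 44.6 CPM in Rosa and 52.8, 55.6 and 65.9 in Camk2a. Those of single ChIP-Seq read 32.7, 30.9 and 30.8 in Rosa and 31.3, 41.8 and 33.2 in Camk2a. The 2 lines overlapped in each assay, and in tChIP-Seq replicate 1 of Rosa lay above replicates 1 and 2 of Camk2a.

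*Pvalb*, for parvalbumin, had the fewest reads. The region held 17, 34 and 13 reads in Rosa single ChIP-Seq, 24, 18 and 13 in Rosa tChIP-Seq, 17, 18 and 14 in Camk2a single ChIP-Seq and 33, 31 and 22 in Camk2a tChIP-Seq. These are 2.89 ± 1.04 CPM, 10.6 ± 2.0, 3.99 ± 0.437 and 10.0 ± 1.69 (SD, n = 3 each). Every tChIP-Seq library lay above every single ChIP-Seq library, and the lines overlapped within each assay. Per kb of region, the level in Rosa single ChIP-Seq was 4.12 CPM at *Pvalb*, 11.8 at *Calb1*, 14.8 at *Reln* and 24.9 at *Cck*. The order per kb in Rosa tChIP-Seq differed, with 22.5 at *Reln*, 15.1 at *Pvalb*, 11.4 at *Cck* and 7.32 at *Calb1*.

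**Figure D3:**
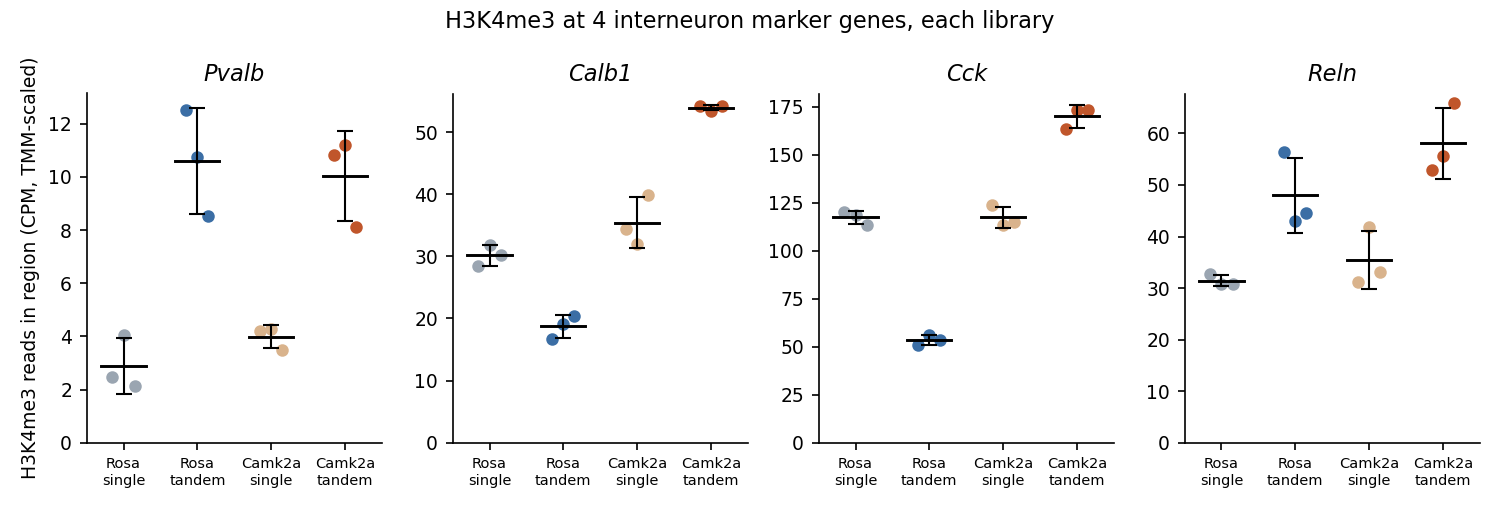
TMM-scaled CPM (y axis, from 0) of the 4 regions in each of the 12 libraries (points), with mean and SD of the 3 libraries of each group (bars), for single and tandem ChIP-Seq of the Rosa and Camk2a lines. *Cck* and *Calb1* are lowest in Rosa tChIP-Seq and highest in Camk2a tChIP-Seq, and *Pvalb* and *Reln* are higher in tChIP-Seq of both lines.

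Whether tagged chromatin of *Camk2a*-expressing cells carries more or less of the mark than tagged chromatin of all cells was asked by comparing the lines in tChIP-Seq. *Cck* was 3.18-fold higher in the Camk2a line, or 1.67 on the log2 scale (SE 0.0844, adjusted p = 1.81e-29), rank 107 of 17993. *Calb1* was 2.91-fold higher, or 1.54 (SE 0.145, adjusted p = 1.47e-15), rank 210. *Reln* was not called, at 0.26 (95% interval 0.03 to 0.49, adjusted p = 0.0611), nor was *Pvalb*, at -0.09 (95% interval -0.58 to 0.41, adjusted p = 0.82). Thus 2 of 4 regions were called, both higher, where 31.6% of all regions were called, 17.0% higher and 14.6% lower. These were 3062 higher and 2620 lower regions, and 2570 and 3315 when the libraries were scaled by their totals in place of TMM. *Reln* ranged from 0.16 without replicate 3 of Camk2a (adjusted p = 0.342) to 0.41 without replicate 1 of Rosa (adjusted p = 0.0126) and was called in no such fit. The libraries of the lines did not overlap at these 2 regions, as at 48.4% of all regions. Fewer cells of a type and less H3K4me3 per cell cannot be told apart in these bulk samples. The study puts the share of tagged cells at about the limit that its cell-mixing experiment set for FLAG purification. The part of untagged chromatin in Camk2a tChIP-Seq was not tested.

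In single ChIP-Seq, which reads chromatin of all cells in both lines, none of the 4 regions was called (edgeR), and 2.15% of all regions were, 0.928% higher and 1.22% lower. Scaling by library totals turned this split of 167 higher and 219 lower into 194 and 57. The log2 fold changes of Camk2a over Rosa were 0.41 for *Pvalb* (adjusted p = 0.391), 0.22 for *Calb1* (adjusted p = 0.128), -0.01 for *Cck* (adjusted p = 0.964) and 0.17 for *Reln* (adjusted p = 0.266). *Pvalb* ranged from 0.26 without replicate 3 of Rosa to 0.78 without replicate 2 of Rosa (adjusted p = 0.157). *Reln* went to 0.03 without replicate 2 of Camk2a (adjusted p = 0.916) and was between 0.15 and 0.25 when any other library was left out. *Calb1* ranged from 0.13 without replicate 3 of Camk2a (adjusted p = 0.545) to 0.29 without replicate 2 of Camk2a (adjusted p = 0.106). *Calb1* alone had an unadjusted p under 0.05, at 0.0177, and DESeq2 also called none of the 4. It was also the only region of the 4 whose libraries did not overlap, which held for 25.0% of all regions. The interval of *Cck* was narrow, from -0.10 to 0.09, and that of *Pvalb* wide, from -0.13 to 0.95.

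The difference of the line effects between the assays was tested as an interaction over all 12 libraries, where 26.9% of regions were called, 13.7% higher and 13.2% lower (2466 and 2375 regions, against 1894 and 2970 with library totals). It was 1.67 on the log2 scale for *Cck* (SE 0.1003, adjusted p = 6.95e-41) and 1.31 for *Calb1* (SE 0.18, adjusted p = 4.18e-11). It was 0.08 for *Reln* (95% interval -0.21 to 0.38, adjusted p = 0.719) and -0.51 for *Pvalb* (95% interval -1.25 to 0.23, adjusted p = 0.321), neither called. *Pvalb* ranged here from -0.88 without replicate 2 of Rosa single ChIP-Seq (adjusted p = 0.0932) to -0.35 without replicate 3 of that group (adjusted p = 0.539). The interaction shares its libraries with the comparisons of the lines and is no separate evidence.

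Between assays within a line, all 4 regions were called, where 47.2% of regions were called in Rosa (24.7% higher, 22.5% lower) and 47.9% in Camk2a (25.3% higher, 22.6% lower). With library totals the split in Rosa went from 4439 higher and 4046 lower to 5298 and 2522. The libraries of the assays did not overlap at any of the 4, as at 62.3% of all regions in Rosa and 61.6% in Camk2a. In Rosa, *Pvalb* was 3.59-fold higher in tandem over single purification (log2 1.85, SE 0.279, adjusted p = 3.6e-10) and *Reln* 1.55-fold higher (log2 0.63, adjusted p = 1.82e-07). *Cck* fell by 1.12 (adjusted p = 1.66e-38), rank 82 from the lowest of all regions, and *Calb1* fell by 0.69 (adjusted p = 2.4e-05). In Camk2a, all 4 were higher in tChIP-Seq, *Pvalb* by 1.33 (adjusted p = 2.56e-06), *Reln* by 0.71 (adjusted p = 2.37e-10), *Calb1* by 0.61 (adjusted p = 4.31e-08) and *Cck* by 0.53 (adjusted p = 1.41e-16). *Cck* and *Calb1* therefore changed sign between the lines, and *Pvalb* and *Reln* did not. The study also found sites enriched or depleted in tChIP-Seq over single ChIP-Seq in Rosa, and proposes biases of the tandem method. For this reason its differential analyses mainly compared the lines in tChIP-Seq, not the assays. The part of such biases in the changes between assays was not tested.

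The change between assays in Rosa differed by the size of the count. When the regions were split into 10 groups by total count, the median log2 change of the tandem over the single assay was 0.86 in the group with the smallest totals and -0.29 in that with the largest, and was lower in each group than in the one before. In Camk2a the medians of these 2 groups were 0.62 and -0.12. The group that holds *Pvalb* (1799 regions with totals from 201 to 420) had a median of 0.81 in Rosa, with 52.8% called higher. The group that holds *Cck* (totals from 4474 to 5879) had a median of -0.21 with 51.8% called lower, and the one that holds *Calb1* and *Reln* (totals from 1507 to 2189) a median of 0.03. The part of count size in the values of the 4 genes was not tested. Between lines in tChIP-Seq, the same 3 groups had medians of -0.07, 0.03 and -0.05. Between lines in single ChIP-Seq their medians were 0.23, -0.06 and 0.02, and in the interaction -0.33, 0.09 and -0.07. In the group that holds *Pvalb*, 20.5% of regions were called lower and 3.22% higher in the interaction.

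**Figure D4:**
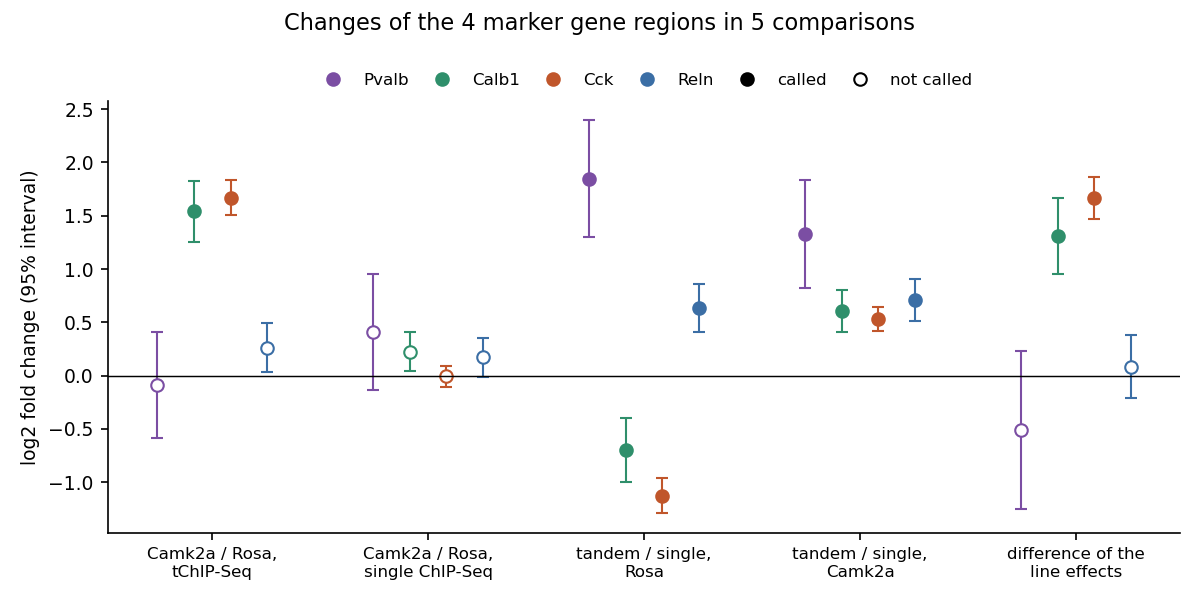
Log2 fold changes (y axis) of *Pvalb*, *Calb1*, *Cck* and *Reln* in 5 comparisons (x axis), with 95% intervals as bars and filled points where the adjusted p was under 0.01. *Cck* and *Calb1* sit at 1.67 and 1.54 between the lines in tChIP-Seq and at -1.12 and -0.69 between the assays in Rosa, while *Pvalb* is at 1.85 and 1.33 between the assays.

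The genes whose pattern over the 12 libraries was most like that of each region were found among 12624 regions by the root mean square (RMS) difference of log2 CPM, each centred on its own mean. *Cck* was closest to *Hecw1* (0.0684), *3110035E14Rik* (0.0724) and *Nedd4l* (0.073). *Calb1* was closest to *Odz1*, *Ankrd34c* and *Lmo7*, with RMS differences of 0.0935 to 0.0976. *Reln* was closest to *Arhgap24*, *Gramd1b* and *Wnt7b* (0.129 to 0.136). *Pvalb* was closest to the shared region of *Afmid* and *Tk1*, to *Arhgap8* and to *Nxnl2*, at larger differences of 0.27 to 0.275. Among the 4 genes themselves, *Calb1* and *Cck* were most alike (0.187) and *Pvalb* and *Cck* least (1.11).

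Around the genes, within 50 kb of their ends, lay 9 other regions. *Sst* had 2 upstream, at chr16:23898301-23898500 and chr16:23898554-23898959, with 67 and 146 reads over all libraries. The second was higher after tandem purification in Rosa (log2 1.58, adjusted p = 1.93e-05), at 7.83, 4.77 and 6.56 CPM against 2.32, 2.39 and 1.64, and neither was called between lines. Next to *Calb1*, the region of *Decr1* (a mitochondrial enzyme of fatty acid oxidation) fell by 0.69 between lines in tChIP-Seq (adjusted p = 3.67e-05), where *Calb1* was higher. It was also called between assays, at 0.47 in Rosa and -0.45 in Camk2a, and in the interaction, at -0.90. *Ift27* near *Pvalb* was higher in tChIP-Seq of both lines, by 0.43 and 0.57, as was *Slc26a5* near *Reln*, by 1.96 and 1.63, while *Nbn* near *Calb1* fell by 0.34 in Rosa and 0.35 in Camk2a. The *Slc26a5* region held only 130 reads over all libraries. It lies in the group with the smallest totals, whose median changes were 0.86 in Rosa and 0.62 in Camk2a. The region closest to *Calb2*, at *Ftsjd1*, was 49068 bp from its start and not called in any of the 5 comparisons. *Vip* and *Npy* had no region within 50 kb, the closest being 87879 bp and 154870 bp from their starts.

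Genes of the same systems were taken from fixed lists and read in the line comparison in tChIP-Seq, where the median of all regions was 0.00 and 17.0% of them were called higher and 14.6% lower. Of the receptors of the peptides and the reelin pathway, 17 of 20 genes had a region, 11 rose and none fell, with a median log2 fold change of 0.76. With library totals the adaptor gene *Crkl* of the reelin pathway was also called, lower (-0.23, adjusted p = 0.00449, against -0.15 and 0.0611 with TMM). The highest were *Sstr3*, a somatostatin receptor (1.86), *Cckbr*, the main cholecystokinin receptor of the brain (1.64), and *Npy5r*, a neuropeptide Y receptor (1.36). *Vipr1*, a receptor of vasoactive intestinal peptide, rose by 1.29. Of the reelin pathway, *Dab1*, the adaptor of reelin signalling, rose by 0.55 and the receptor gene *Vldlr* by 0.40, while *Lrp8* was at 0.03 and was not called.

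Other neuropeptide precursors of the brain had a region for 11 of 24 genes, of which 9 rose and 1 fell (median 1.13), beside the 17.0% higher and 14.6% lower of all regions. *Adcyap1*, for the peptide PACAP, rose by 1.91 and *Chga*, for the granule protein chromogranin A, by 1.60, whereas *Pthlh*, for parathyroid hormone-related peptide, fell by 1.24. Other EF-hand calcium-binding genes had a region for 23 of 27, of which 16 rose and 2 fell (median 0.52), beside the same shares of all regions. *Hpca*, the neuronal calcium sensor hippocalcin, rose by 1.42 and *Necab1* by 1.41, while *Efhd1*, of mitochondria, fell by 1.04.

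Of 23 genes for GABA synthesis, transport and lineage, 19 had a region, 14 fell and none rose (median -0.90), where 14.6% of all regions were called lower and 17.0% higher. Not all members were lower, since *Adarb2* was at 0.45 (adjusted p = 0.0319) and *Satb1* at 0.16 (adjusted p = 0.0466), with higher, non-overlapping libraries in Camk2a, and neither was called. *Gad1*, which makes GABA, fell by 1.03 from 26.2 to 12.8 CPM, and the transcription factor genes *Prox1* and *Dlx2* of the interneuron lineage fell by 1.38 and 1.30. *Gad2*, the other GABA-synthesizing enzyme, was at -0.55 (adjusted p = 0.0198) and was not called, but was with library totals, at -0.62 (adjusted p = 0.00795). The summed level of the 19 regions was 1028 ± 5.03 CPM in Rosa tChIP-Seq and 664.7 ± 12.5 in Camk2a tChIP-Seq (SD, n = 3), against 957 ± 12.0 and 954 ± 9.47 in single ChIP-Seq. *Slc32a1*, the vesicular GABA transporter, had no region.

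Other peptides and subtype markers of cortical interneurons were mixed. Of 26 genes, 18 had a region, 11 rose and 2 fell (median 0.58), or 10 and 2 with library totals, where *Nxph2* was not called. Of all regions 17.0% were called higher and 14.6% lower. The median of these 18 genes was 0.23 between lines in single ChIP-Seq. In the interaction it was 0.19, with 6 called higher and 2 lower, where 13.7% and 13.2% of all regions were. With library totals the median in the interaction was 0.10, with 5 called higher and 2 lower, beside 1894 and 2970 of all regions. *Lamp5*, a marker of neurogliaform interneurons that pyramidal neurons of the upper layers also transcribe, rose by 1.56. The potassium channel genes *Kcnc2* and *Kcnc1* of fast-spiking cells rose by 1.07 and 1.02. *Cxcl14*, a chemokine gene, fell by 1.84 from 36.2 to 10.0 CPM and *Ndnf*, of layer 1 interneurons, by 0.64. The tachykinin precursor gene *Tac1* was at 0.32 (adjusted p = 0.505) and the dynorphin precursor gene *Pdyn* at 0.24 (adjusted p = 0.645), with overlapping libraries.

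Markers of other cells moved with this comparison, where 17.0% of all regions were called higher and 14.6% lower. Of 15 genes of excitatory cortical neurons, *Camk2a* itself among them, 14 had a region, 11 rose and none fell (median 1.08), and their summed level was 1003 ± 35.8 CPM in Rosa and 2016 ± 62.5 in Camk2a tChIP-Seq. Of astrocyte genes, 8 of 9 with a region fell (median -1.77), *Aldh1l1* by 2.86, while the glutamate transporter gene *Slc1a2* rose by 0.38. Of oligodendrocyte genes, 6 of 8 with a region fell, and *Mbp* rose by 1.18 at its counted region (chr18:82643953-82646548). Which transcripts of *Mbp* start in this region was not examined. All 7 endothelial and mural genes with a region fell (median -2.19). None of 10 microglia genes had a region. The summed levels over astrocyte genes were 679 ± 27.3 CPM in Rosa and 382.8 ± 4.88 in Camk2a tChIP-Seq.

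*Cck* at 1.67 and *Calb1* at 1.54 lay above the median of the excitatory list. Cajal-Retzius cells, the reelin-making neurons of layer 1 in development, had 5 of 7 marker genes with a region. Of these, 4 fell and none rose (median -0.69), where 14.6% of all regions were called lower and 17.0% higher. *Ndnf* is among those that fell and is also counted in the list of other subtype markers. *Reln* itself was at 0.26. Lists for tissue outside the cortex, whose genes may also be transcribed in cortical cells, had regions too, and their counts stand beside 17.0% higher and 14.6% lower of all regions (2570 and 3315 regions with library totals). Cerebellar markers had a region for 4 of 11, of which *Zic1* fell by 2.21, *En2* by 1.29 and *Cbln1* rose by 0.34, a call that was lost with library totals (0.26, adjusted p = 0.0205). Thalamus and midbrain markers had a region for 5 of 9, of which 3 fell, *Tcf7l2* by 2.78. Striatal markers had a region for all 10, of which 5 rose and 2 fell (median 0.37), or 4 and 2 with library totals, where *Foxp1* was not called. The part of other cell types and regions in the levels of the 4 genes was not tested.

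**Figure D5:**
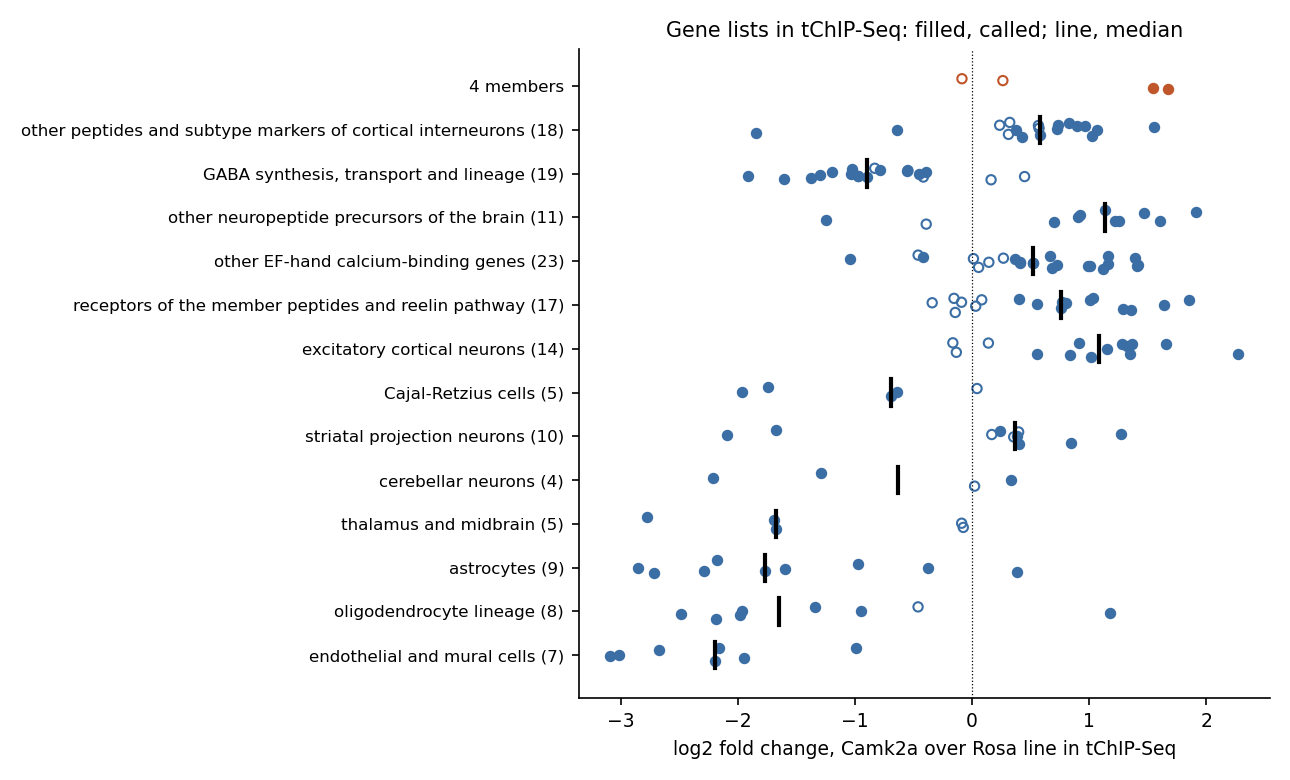
Log2 fold changes of the Camk2a over the Rosa line in tChIP-Seq (x axis) for the 4 regions (orange) and for the regions of 13 gene lists (blue, number with a region in brackets), with filled points where called and black lines at the median of each list. *Cck* and *Calb1* are on the side of the excitatory list (median 1.08), and the list of GABA synthesis, transport and lineage has a median of -0.90.

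In single ChIP-Seq, where 0.928% of all regions were called higher and 1.22% lower, most genes of the same lists were not called. None of the 19 GABA genes, 9 astrocyte genes or 7 endothelial and mural genes was called between lines, and 1 of 14 excitatory genes, 2 of 18 other subtype markers, 1 of 17 receptor and reelin genes and 1 of 11 peptide precursors were called higher. The 1 excitatory gene was *Camk2a*, whose promoter also drives the Cre transgene. The median was 0.23 for the other subtype markers, 0.22 for the peptide precursors and 0.18 for the thalamus and midbrain list, against 0.00 for all regions. Over the 10 groups by total count, the median was 0.26 in the group with the smallest totals and -0.07 in that with the largest. The part of count size in the medians of the lists was not tested. Of the EF-hand genes 1 of 23, and of the oligodendrocyte genes 3 of 8, were called lower. These counts depended on the scaling, with 1 of 8 oligodendrocyte genes called with DESeq2 size factors and with library totals, and no EF-hand gene with library totals. Between assays in Rosa, where 24.7% of all regions were called higher and 22.5% lower, the excitatory list fell in 10 of 14 genes and rose in 2, and the Cajal-Retzius and the thalamus and midbrain lists rose in all 5 genes each. In Camk2a, where 25.3% of all regions were called higher and 22.6% lower, the excitatory list rose in 10 of 14 genes and fell in 1, the Cajal-Retzius list rose in 2 of 5, and of the thalamus and midbrain list 2 genes rose and 2 fell.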

How the data were processed

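Single ChIP-Seq and tChIP-Seq of H3K4me3 were analysed in the 12 libraries described; 12 input and FLAG libraries were not analysed here. The authors trimmed reads, removed repeats with Bowtie2 2.1.0, mapped with Bowtie 1.0.0 to mm9, removed duplicates with SAMtools 0.1.19, defined peaks by MACS, counted reads in each region by bedtools 2.17.0 (versions per the submitters' processing notes; the study's methods name a different SAMtools version) and deposited raw counts on 17993 regions common to all libraries. How separate peak calls were merged into these regions is not given in the sources used here. Each pair of groups was fitted in edgeR 4.0.16 (R 4.3.3; TMM, glmQLFit, glmQLFTest) on its 6 libraries, and the interaction on all 12, with Benjamini-Hochberg adjustment over all regions, a threshold of 0.01 and no filter on low counts. SEs were computed from the log2 fold change and F statistic. The alternatives were DESeq2 size factors, library totals, the Wald test of DESeq2 1.42.0, 2 filters on low counts, thresholds of 0.05 and 0.001, all 12 libraries in each fit, a replicate block, leaving out each library, and other rules for the regions of the genes. The code was tested on simulated data.

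Libraries with the same replicate number were checked for shared deviations from their group means, and the correlations were weak. With replicates this close to counting error, the check cannot tell whether such libraries share a lysate. The main fits treat them as unpaired. The genes, lists, tests and alternatives were chosen with earlier results of these data known, so none is independent evidence. The rule for named genes was every region of the 8 genes, the closest region of those without, called regions within 50 kb, the 3 most alike regions, and from each list up to 4 of the 3 highest and 3 lowest called genes whose libraries did not overlap. Other genes, such as Gad1, Gad2, Crkl, Nxph2, Foxp1, Adarb2, Satb1, Dlx2, Vipr1, Tac1, Pdyn, Lrp8, Dab1 and Vldlr, were named after their values were seen. Some genes that the rule names are not reported here. A gene with several regions is counted by the region with the highest total.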

Additional observations from a re-analysis of the deposited data

Results flagged for a closer look

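The effect of the line differed between the assays for 2 of the 4 regions, by the interaction test (edgeR quasi-likelihood). The log2 difference was 1.67 for *Cck* (adjusted p = 6.95e-41), from line effects of 1.67 in the tandem and -0.01 in the single assay. It was 1.31 for *Calb1* (adjusted p = 4.18e-11), with 1.54 and 0.22. Groups of 3 libraries were not examined for outlying samples.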

How the results depend on the processing

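The number of the 4 regions called did not change in any comparison under the alternatives run, except that *Pvalb* was removed by dropping the 40% of regions with the smallest totals, which left 3 called regions between assays in each line. Of 275 alternatives for 20 log2 fold changes, 265 kept direction and side of the threshold, and 10 changed sign, all of values that were not called. *Cck* between lines in single ChIP-Seq went to 0.0246 with library totals, to 0.0311 without the lowest 40%, and ranged from -0.0451 to 0.0183 when a library was left out. *Reln* in the interaction went to -0.0091 with library totals and ranged from -0.0133 to 0.231 without a library, and *Pvalb* between lines in tChIP-Seq from -0.2071 to 0.0634.

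Deviations of libraries with the same replicate number were weakly correlated (between -0.019 and 0.0443), which cannot show whether they are paired. The replicate block changed no call of the 4 regions: *Cck* between lines in tChIP-Seq was 1.67 (adjusted p = 5.42e-19) and *Calb1* 1.54 (adjusted p = 1.08e-11) with it. The background counts depended more on the setting. Between lines in single ChIP-Seq 386 regions were called, against 34 with DESeq2, 251 with library totals, 106 without the lowest 40%, 1191 at a threshold of 0.05, 104 at 0.001, and 118 to 226 in the 5 cases where leaving out a library moved the count most. Between lines in tChIP-Seq 5682 became 3276 without the lowest 40%. In the same setting 8485 became 3636 between assays in Rosa, 8617 became 4510 in Camk2a and 4841 became 2840 in the interaction. With DESeq2 the count between assays in Camk2a was 5563. Fewer regions were tested without the lowest 40%, and the part of this in the lower counts was not tested. Depth limits *Pvalb* most, with 13 to 34 reads per library.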
